A study of Mus musculus with 4 samples.

Results

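Mesothelial nuclei were selected from single-nucleus RNA-seq of mouse liver by their marker genes, and 129 of the 42877 nuclei that passed the nucleus filter were members (0.301%). Each unique molecular identifier (UMI) counts 1 captured RNA molecule. A nucleus was chosen when it held UMIs of at least 2 of Wt1, Upk3b, Lrrn4, Msln and Gpm6a, with Wt1, Upk3b or Msln among them, and no UMI of Stab2, Ptprb, Clec4f, Adgre1, Skap1, Bank1 or Pkhd1, which mark endothelial cells, Kupffer cells, lymphocytes and bile duct cells. The levels of these 12 genes are therefore a description of the choice and not a result.

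The liver is covered by the mesothelium, a single sheet of flat epithelial cells on a basement membrane under its capsule. Mesothelial cells carry keratins and surface mucins like an epithelium, but they arise from mesoderm and keep genes of mesenchymal cells, among them the transcription factor Wt1. They secrete lubricating fluid and matrix, and in the developing liver they give rise to hepatic stellate cells and fibroblasts.

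The series holds 4 libraries of liver nuclei, 1 for each group. The Bl/6 mice ate either a chow diet (CD) or a low-protein diet (LPD) throughout. The tail vein injection came 1 week into the diet and the livers were taken 2 weeks later. In the CD oncogene and LPD oncogene groups, the injection carried plasmids for human c-MET and β-catenin (CTNNB1) with the Sleeping Beauty transposase, which inserts them mainly into hepatocytes. The CD control and LPD control groups received vector without these genes. The number of mice behind each library is not stated in the sources used here. With 1 library per group there was no replicate, no test between groups was run, and every interval given for a library covers counting error only.

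Where 4 values are listed, the first pair comes from the CD libraries and the second from the LPD libraries, each with the control ahead of the oncogene library. The libraries held 56514058, 62869348, 23260800 and 23172463 UMIs, so the LPD libraries were the shallower ones. The library labelled CD control held 100 UMIs of the human transgenes and the library labelled CD oncogene held 0, which goes against those labels, while the LPD control library held 0 and the LPD oncogene library 6. After filtering, the library labelled CD control held 10397 nuclei and the one labelled CD oncogene 12552. The nuclei numbers in the study's text have the opposite order on CD. In what follows, CD control and CD oncogene name the libraries so labelled. The members held 0 transgene UMIs in every library. In all, 179 barcodes occurred in more than 1 library, and none of them belonged to a member.

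The members numbered 40, 23, 23 and 43 in the 4 libraries. They were shallow nuclei, with a median of 1456.5, 1370, 1168 and 1015 UMIs, against 3825, 3299, 1966.5 and 1767 UMIs in the other nuclei of the same libraries. Summed over its members, a library held 67059, 41068, 28817 or 58089 UMIs, so that 1 UMI was worth 14.9, 24.3, 34.7 or 17.2 CPM (UMIs of a gene per 1000000 UMIs of all mouse genes). A gene with 0 UMIs in the members of a library could still have been present at up to 44.7, 73.0, 104 or 51.6 CPM, the level of 3 counts. The median share of mitochondrial UMIs in the members was 3.15%, 1.69%, 0.171% and 0.365%, higher in both CD libraries than in both LPD libraries.

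Of the markers that chose the members, Gpm6a, a membrane glycoprotein, had a UMI in 117 members, Wt1 in 83, Msln (mesothelin) in 55, Upk3b (uroplakin 3B) in 41 and Lrrn4 in 16. In the nuclei outside the gate these shares were 0.940%, 0.208%, 0.145%, 0.105% and 0.0398%. No member held all 5 markers, 9 held 4, 36 held 3 and 84 held 2. The commonest pair was Wt1 with Gpm6a, in 72 members, while 46 members had no Wt1 UMI. Wt1 stood at 552, 609, 937 and 551 CPM in the members of the 4 libraries, from 37, 25, 27 and 32 UMIs. Just outside the threshold, 75 nuclei held 1 defining marker (Wt1, Upk3b or Msln) and no other of the 5, and 39 nuclei passed the markers but held an excluded gene.

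The promoters of 2 genes described below are shown because Muc16 led the genes raised in the members, and because Igfbp5 was the only one of the leading genes with a promoter in the table that held any of the motifs searched. Both sequences are the 250 bases before the RefSeq start of the gene (GRCm38.p6), read 5′ to 3′ on the gene's own strand, with a TEAD motif in capitals.
Muc16 (chr9:18674604-18674853, minus strand): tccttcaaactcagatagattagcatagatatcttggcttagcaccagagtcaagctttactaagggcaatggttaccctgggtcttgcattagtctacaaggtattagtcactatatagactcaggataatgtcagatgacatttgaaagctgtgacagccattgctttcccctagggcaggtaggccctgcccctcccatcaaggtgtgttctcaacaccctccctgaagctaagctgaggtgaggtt
Igfbp5 (chr1:72874866-72875115, minus strand): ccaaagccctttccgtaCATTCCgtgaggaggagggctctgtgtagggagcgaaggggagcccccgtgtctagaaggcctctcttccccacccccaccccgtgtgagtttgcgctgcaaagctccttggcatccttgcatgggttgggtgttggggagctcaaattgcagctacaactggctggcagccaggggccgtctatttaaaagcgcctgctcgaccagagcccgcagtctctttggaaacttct
In the Igfbp5 promoter the capitals lie 233 to 228 bases before the start, and the Muc16 promoter holds none of the motifs.

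Clustering placed the members together although the 12 genes of the gate had been left out of it. Of 129 members, 128 fell in 1 of 27 clusters, which held 345 nuclei, none of them from the stellate or the cholangiocyte gate. Both of these gates barred nuclei with Wt1, Upk3b or Msln, so no member could be in either. Their absence from the cluster was thus in part fixed in advance. The remaining member lay in a cluster rich in stellate nuclei. The same count of 128 was found when nuclei were scaled over all libraries together (29 clusters) and at a finer resolution (40 clusters).

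The cluster also held 217 nuclei outside the gate. Of these, 48 had none of the 5 markers, 130 had 1 and 39 had 2 or more, and 79 held an excluded gene, most often Pkhd1 (30 nuclei) or Stab2 (29 nuclei). Their median depth was 1176 UMIs, close to that of the members (1170).

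A list of 26 mesothelial genes that the gate did not use was then counted in each nucleus. Members had a median of 6 of these genes (range 0 to 12), and 93.0% of members had at least 2. This share was 89.3% among the 84 members with 2 markers and 100% among the 45 with 3 or 4. The member outside the cluster had none of the 26 genes. Among the 48 cluster nuclei with no marker at all, 83.3% had at least 2 genes of the list, and among the 28 cluster nuclei with 1 defining marker the share was 85.7%. The 47 nuclei with 1 defining marker outside the cluster had a share of 27.7% although they were deeper (median 2139 UMIs), stellate nuclei had 22.04%, the cholangiocyte gate 52.3% at a median of 6614 UMIs, and the 42531 nuclei outside both gate and cluster 21.1%. Only the 12 gate genes were kept out of the clustering and the 26 genes were open to it, so the shares of cluster nuclei describe the cluster and are no independent test of it. The bar plot sets most of these shares side by side, and the cholangiocyte gate is not drawn.

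**Figure D1:**
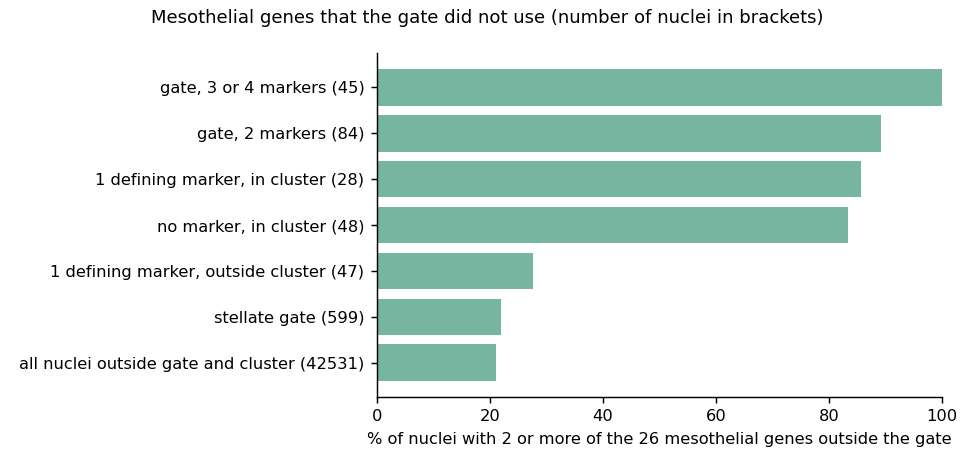
Percent of nuclei with UMIs of 2 or more of the 26 mesothelial genes that the gate did not use, for members by number of gate markers and for other sets of nuclei, with the number of nuclei in brackets. The 48 cluster nuclei without any gate marker reach 83.3%, against 22.04% in the stellate gate. The deeper cholangiocyte gate, at 52.3%, is not drawn.

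Members made up 0.385% of the nuclei of the library labelled CD control (95% Clopper-Pearson interval 0.275 to 0.524), 0.183% of CD oncogene (0.116 to 0.275), 0.234% of LPD control (0.148 to 0.351) and 0.426% of LPD oncogene (0.308 to 0.573). As labelled, the share was lower in the oncogene than in the control library on CD, and higher on LPD. With both CD labels exchanged, an alternative added after the data were seen, it was higher in the oncogene library on both diets, 2.0996 times on CD and 1.82 times on LPD. The whole cluster gave 0.875% (0.705 to 1.07), 0.741% (0.598 to 0.907), 0.438% (0.317 to 0.589) and 1.17% (0.968 to 1.40) of the nuclei. Here the intervals of both CD libraries overlapped, and the LPD oncogene share stood above the LPD control share by more than counting error. The gate caught a different part of the cluster in each library, 44.0%, 24.7%, 51.2% and 36.4% of its nuclei. The bars for the gate and for the cluster show that the order of the libraries depends on which of them is counted. Without the CD libraries, whose transgene UMIs go against their labels, the LPD pair still differed in the same direction by both counts.

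**Figure D2:**
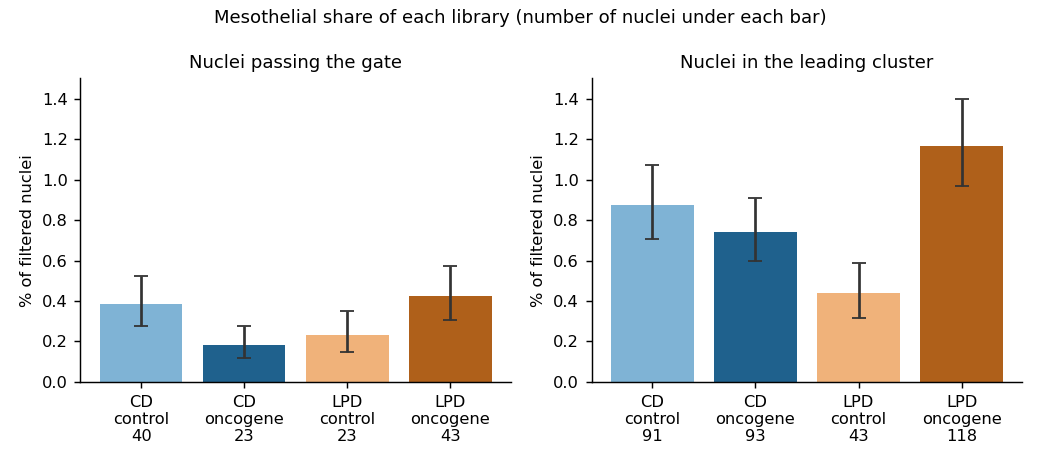
Percent of filtered nuclei that passed the gate (left) or fell in the cluster that held 128 of the 129 members (right) in each library, with 95% Clopper-Pearson intervals and the number of nuclei under each bar. CD oncogene is lowest on the left (0.183%) and LPD control is lowest on the right (0.438%).

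The members were compared with 3 other sets of nuclei from the same libraries: 599 stellate nuclei, a mesenchymal population of the liver, 677 nuclei of a cholangiocyte gate, and all 42748 other nuclei. UMIs were summed per library and set, and edgeR's quasi-likelihood test was run with the library as a block over the 4 libraries. Genes with a Benjamini-Hochberg adjusted p under 0.05 are called higher or lower. The test gives no standard error. Each SE is the size of the log2 fold change over the square root of the test statistic F. Where a set held few or no UMIs of a gene, this SE is no measure of its counting error. These tests use 1 sum per library, so their n is 4 libraries, and how many mice they come from is not stated.

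Against stellate nuclei, 1964 genes were tested, 333 were called higher in members (17.0%) and 319 lower (16.2%). For the cholangiocyte gate, 2885 were tested, with 544 higher (18.9%) and 585 lower (20.3%). With all other nuclei as the comparison, 13497 were tested, with 1182 higher (8.76%) and 805 lower (5.96%). Few nuclei of the cholangiocyte gate resembled bile duct cells: 89 of its nuclei lay in the cluster with most nuclei of a stricter gate, its nuclei had a median of 6614 UMIs, and Pkhd1, on which it rests, was detected in 34.0% of all nuclei outside the mesothelial gate. A stricter gate of 106 nuclei, added after the values were seen, left 976 genes tested, 144 higher and 96 lower.

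In all, 252 genes were called higher against each of the 3 sets, and 230 of them had at least 5 member UMIs in every library. The 20 with the largest smallest fold change are described first. All 20 were detected in 26 to 107 of the 129 members, 13 had no UMI in stellate nuclei and 4 had none in the cholangiocyte gate. Where stellate nuclei held 0 UMIs, the fold is a lower bound against 3 counts over all stellate nuclei.

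Muc16 had the largest smallest fold change of the 20 genes, and several others encode surface proteins. Muc16 (chr9:18495455-18674530, minus strand), the mucin that carries the CA125 antigen, stood at 984, 730, 1284 and 706 CPM in members and had no UMI in stellate or cholangiocyte-gate nuclei, so it was at least 336-fold higher than in stellate nuclei (edgeR adjusted p = 4.87e-11). All 4 libraries were high, and 82 members held a UMI. Il1rapl1, a synaptic adhesion protein, stood at 880, 536, 937 and 1050 CPM and was at least 326-fold higher. Nxph1, a neurexophilin that binds neurexins, stood at 1178, 1631, 1874 and 930 CPM against 0, 2.43, 0 and 0 in stellate nuclei (log2 fold change 9.92 ± 0.47 SE). The member values of both genes lay far above the stellate values in every library. Podoplanin (Pdpn), a surface glycoprotein of mesothelium and lymphatic vessels, stood at 149, 292, 174 and 207 CPM and was at least 75.2-fold higher. Ephb1, an ephrin receptor, was at least 185-fold higher, Lrp2 (megalin), an endocytic receptor, at least 96.5-fold higher, and Cadm2, an adhesion molecule, 7.95 ± 0.50 higher on the log2 scale.

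Secreted factors and matrix modifiers formed a further part of the 20 genes. Sulf1, which trims sulfate groups from heparan sulfate, was detected in 107 members at 2341, 1242, 2533 and 2496 CPM, against 11.7, 2.43, 15.3 and 0 CPM in stellate nuclei (log2 fold change 7.95 ± 0.39, edgeR adjusted p = 4.12e-12). Igfbp5, which binds insulin-like growth factors, stood at 671, 122, 833 and 1085 CPM against 5.84, 0, 0 and 0 (log2 fold change 7.82 ± 0.49). Its CD oncogene value was the lowest of the 4 libraries, and still above every stellate value. Rspo1, an R-spondin that amplifies Wnt signals, stood at 537, 146, 521 and 258 CPM and had no UMI in stellate nuclei (at least 139-fold). Gpc3, a cell surface heparan sulfate proteoglycan, stood at 984, 536, 798 and 809 CPM (log2 fold change 8.28 ± 0.47). Nrg2, a neuregulin, was raised by 7.75 ± 0.47 on the log2 scale, and Cpe, a carboxypeptidase of the secretory pathway, at least 81.0-fold.

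Transcription factors, channels and cytoplasmic proteins made up the rest. The zinc finger proteins basonuclin 1 and 2 were both among the 20: Bnc2 stood at 1819, 609, 1492 and 1687 CPM in members (log2 fold change 8.02 ± 0.52), and Bnc1 at 268, 195, 243 and 121 CPM, at least 77.2-fold above stellate nuclei. Kcnd2 and Kcnd3 encode pore subunits of A-type potassium channels. Kcnd2 stood at 716, 268, 486 and 1050 CPM and Kcnd3 at 403, 390, 416 and 293 CPM, with no UMI of either in stellate nuclei. Dnajc6 (auxilin), which uncoats clathrin vesicles, stood at 746, 414, 937 and 723 CPM and was at least 262-fold higher. The kinase gene Stk26 was at least 104-fold higher, and Sh3rf2, which encodes a protein with SH3 and RING domains, at least 154-fold. The dot plot of the 20 genes shows the members of every library to the right of the stellate and the other nuclei.

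**Figure D3:**
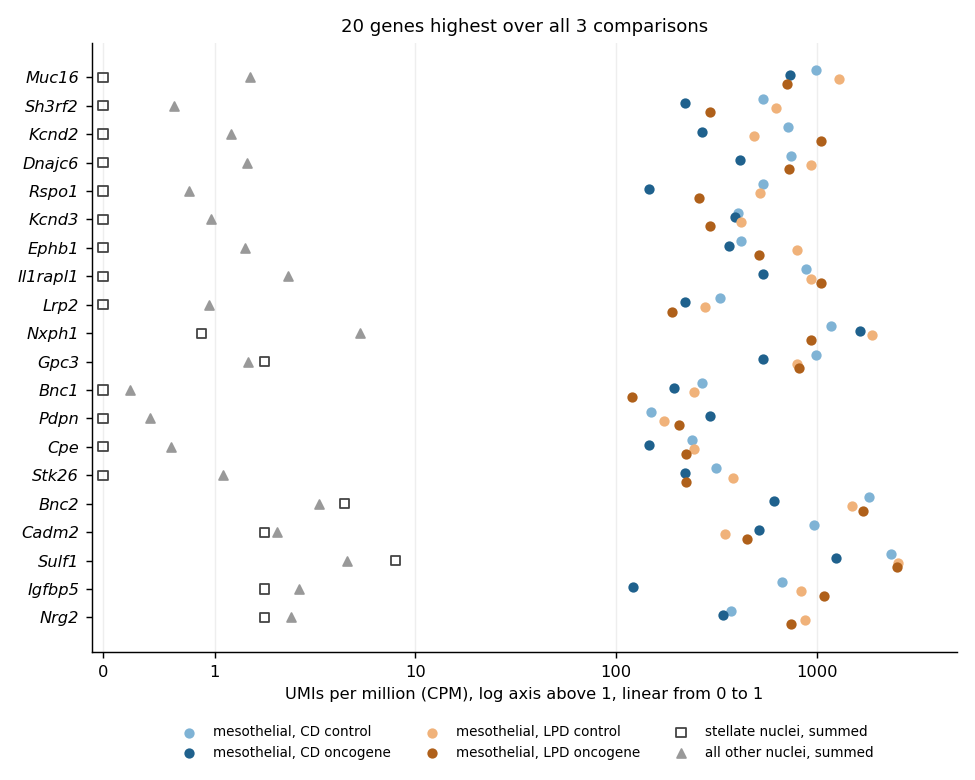
CPM of the 20 leading genes in the members of each library (circles), in all stellate nuclei summed (squares) and in all nuclei outside the gate summed (triangles), on an axis that is linear from 0 to 1 and logarithmic above. The lowest circle is Bnc1 in LPD oncogene at 121 CPM, and the highest square is Sulf1 at 7.97 CPM.

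In the cluster nuclei outside the gate, all 20 genes had a lower CPM than in members. These genes were chosen for their fold change in members, so a lower level outside the gate was favoured in advance. For 5 of them, Nxph1, Ephb1, Cadm2, Kcnd3 and Igfbp5, the share of nuclei with a UMI was larger there than in members, such as 41.0% against 31.8% for Nxph1. There, Muc16 stood at 522 CPM, against 892 CPM over all members, Sulf1 at 1321 against 2184 CPM, Bnc2 at 911 against 1477 CPM and Igfbp5 at 448 against 702 CPM. In all nuclei outside the gate, these 4 genes were at 1.497, 4.56, 3.32 and 2.63 CPM.

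In contrast, 48 genes were called lower against both stellate nuclei and the cholangiocyte gate, and the 5 strongest were found in 5 to 10 members each. Myo10, a myosin of filopodia, stood at 74.6, 24.3, 104 and 0 CPM in members against 753, 924, 852 and 908 CPM in stellate nuclei (log2 fold change -4.11 ± 0.45, edgeR adjusted p = 2.03e-07). Nrp1 (neuropilin 1), a co-receptor for semaphorins and VEGF, stood at 89.5, 48.7, 0 and 68.9 CPM against 397, 260, 138 and 232 CPM. The member values of both genes were below the stellate values in every library. The other genes were Lyn, a Src family kinase (log2 fold change -2.76 ± 0.54), Chd7, a chromatin remodeller (-2.44 ± 0.49), and Arhgap26, a GTPase activating protein (-1.97 ± 0.46). In the cholangiocyte comparison, Nrp1 was not called without CD control (-1.61) and Myo10 not without LPD oncogene (-1.27).

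Among the 26 mesothelial genes outside the gate, 9 could be tested against stellate nuclei, of which 8 were higher and none lower. Their median log2 fold change was 7.95 (6.27 with genes absent from stellate nuclei set to their bound), against 0.035 over all genes tested. The filter on low counts passes a gene with enough UMIs in members alone. With DESeq2, 20 could be tested, with 14 higher and none lower (median 5.86). No filter left 24, with 16 higher and 1 lower (5.42). DESeq2 size factors in edgeR gave 8 higher and 1 lower. In the test against all other nuclei 20 were tested, with 17 higher and none lower, and a median of 7.89. Beside Muc16, Rspo1, Bnc1, Pdpn, Sulf1 and Igfbp5, the genes higher than in stellate nuclei were Slc39a8, a zinc and manganese importer (5.98 ± 0.38), and Efemp1 (fibulin 3), a matrix glycoprotein (3.45 ± 0.30). Efemp1 stood at 1357, 1096, 833 and 1119 CPM in members against 172, 94.6, 115 and 35.6 CPM in stellate nuclei, with no overlap between the sets. Gata4 was the gene that was not called, at 224, 219, 243 and 293 CPM against 339, 277, 478 and 445 CPM. Summed, the list reached 8530, 4967, 10306 and 8625 CPM in members, lowest in CD oncogene. It was 664 CPM in the stellate gate and 315 CPM in all other nuclei.

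Several textbook mesothelial genes did not pass the filter on low counts in the stellate comparison but were raised over all other nuclei. Upk1b, a uroplakin, stood at 492, 73.0, 1215 and 344 CPM in members and 0.730 CPM in all other nuclei (log2 fold change 9.20 ± 0.43). The epithelial keratin Krt7 stood at 149, 122, 243 and 86.1 CPM (8.53 ± 0.65) and Krt19, from 4, 1, 2 and 4 UMIs, at 59.6, 24.3, 69.4 and 68.9 CPM (6.90 ± 0.86). Krt8 and Krt18, the keratins of all simple epithelia and of hepatocytes, were not called, with log2 fold changes of -0.22 ± 0.70 and -0.52 ± 0.63. Nkain4, Cldn15, a claudin, and Slpi, a protease inhibitor, were raised by 7.96, 7.85 and 6.24 on the log2 scale. Calb2, Muc1 and Tcf21 had no UMI in any member, and Aldh1a2 and Tbx18 had UMIs in 3 and 1 members.

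Of the junction, keratin and polarity genes, 7 were tested against stellate nuclei, 4 were higher and 1 was lower. Ezrin (Ezr), which ties microvilli to actin, stood at 418, 390, 347 and 293 CPM in members against 2.92, 2.43, 7.64 and 0 CPM (log2 fold change 6.55 ± 0.48). Among the other higher genes were Pard3b (1.44 ± 0.24) and Magi1 (0.77 ± 0.23), which encode scaffold proteins of cell polarity. N-cadherin (Cdh2) was lower, at 194, 463, 208 and 275 CPM against 1384, 1776, 1361 and 1478 CPM (log2 fold change -2.36 ± 0.28). Magi1 was not called with DESeq2 size factors, nor without CD control, LPD control or LPD oncogene (0.76, 0.62 and 0.60). Against all other nuclei 22 were tested, with 8 higher and 3 lower; P-cadherin (Cdh3) and Cdh11 were raised by 7.80 ± 0.64 and 7.71 ± 0.66 on the log2 scale.

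The basement membrane and matrix genes split, with 5 of 15 tested higher than in stellate nuclei and 7 lower (median log2 fold change -0.49). The 6 chains of type IV collagen, the network collagen of basement membranes, lie in 3 gene pairs. Col4a3 (chr1:82586921-82722059, plus strand) and Col4a4 (chr1:82448423-82586849, minus strand) were higher by 6.05 ± 0.77 and 6.85 ± 0.51, as were Col4a5 (chrX:141475385-141689234, plus strand) and Col4a6 (chrX:141165403-141474076, minus strand) by 5.13 ± 0.48 and 7.64 ± 0.62. Col4a1 (chr8:11198423-11312826, minus strand) and Col4a2 (chr8:11312805-11449287, plus strand), the widespread chains, were lower by -3.48 ± 0.45 and -2.50 ± 0.61.

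In CPM, Col4a4 stood at 403, 195, 555 and 671 in members against 2.92, 0, 0 and 17.8 in stellate nuclei. Col4a1 stood at 29.8, 24.3, 104 and 17.2 CPM against 312, 725, 367 and 436 CPM. Col4a1 was thus lower and Col4a4 higher than in the stellate nuclei of every library. Col4a2 stood at 29.8, 0, 243 and 0 CPM against 231, 425, 214 and 330 CPM, and overlapped the stellate range in LPD control. Among the other matrix genes, Col5a1 (-2.84 ± 0.51), Col14a1 (-1.12 ± 0.27), Fn1 (fibronectin, -1.09 ± 0.31) and Lamc1 (-1.09 ± 0.30) were lower, and Lama1 had no member UMI, which makes it at least 18.5-fold lower. Fn1 and Lamc1 were not called without CD control (-1.08 and -1.004). Col3a1 was not called, at 358, 390, 312 and 241 CPM against 213, 257, 359 and 134 CPM. Over all other nuclei 25 were tested, with 15 higher and 2 lower. There Lama5, a laminin chain of epithelial basement membranes, was raised by 6.01 ± 0.61.

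Of the growth factors, receptors and binding proteins, 12 were tested against stellate nuclei, 2 were higher and 6 lower (median log2 fold change -1.58). With DESeq2, 22 could be tested, with 6 higher and 6 lower (median -0.20), and with no filter 24, with 8 higher and 6 lower (-0.26). Hgf, the ligand of the receptor Met, stood at 14.9, 0, 69.4 and 0 CPM in members against 1281, 1034, 1460 and 1995 CPM in stellate nuclei (-6.42 ± 0.52), while mouse Met stood at 254, 365, 382 and 172 CPM against 37.9, 77.6, 91.7 and 80.2 CPM (2.18 ± 0.33). Neither gene's member and stellate values overlapped. The receptors Pdgfra (-4.61 ± 0.78), Pdgfrb (-4.01 ± 0.63) and Fgfr2 (-3.19 ± 0.30) and the binding protein Igfbp7 (-2.61 ± 0.32) were also lower, and Igfbp3, with no member UMI, was at least 9.33-fold lower. Against all other nuclei 23 were tested, with 8 higher and 5 lower. The ligands Fgf9 (6.61 ± 0.82), Tgfb2 (6.01 ± 0.56) and Bmp4 (4.72 ± 0.63) and the binding protein Igfbp6 (8.17 ± 0.67) were among the higher ones.

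In the Wnt and R-spondin list, 4 genes were tested against stellate nuclei, 1 higher and 1 lower, and these were 2 R-spondins. Rspo1 was found in 46 members and in no stellate nucleus. Rspo3 stood at 0, 0, 69.4 and 0 CPM in members, from 1 nucleus, against 543, 425, 650 and 793 CPM in stellate nuclei (-5.70 ± 0.60, edgeR adjusted p = 1.14e-07). The receptor Lgr4 (0.59 ± 0.36) and the ligase Znrf3 (0.91 ± 0.35) were not called. For the comparison with all other nuclei 14 were tested, with 5 higher and 1 lower; the ligands Wnt2b, Wnt4 and Wnt5a were higher but had UMIs in 3, 3 and 5 members only. Their calls were lost without LPD oncogene (Wnt2b at 2.70 and Wnt5a at 3.03), CD control (Wnt4 at 2.98) or LPD control (Wnt2b at 3.65 and Wnt4 at 3.56).

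The Hippo pathway restrains the co-activators Yap1 and Wwtr1 (TAZ), which act through TEAD factors. Against stellate nuclei 7 of its genes were tested, 4 were higher and none lower (median log2 fold change 1.12). The upstream scaffolds Wwc1 (KIBRA) and Wwc2 were higher by 2.48 ± 0.30 and 1.14 ± 0.24, the target Amotl2 by 2.28 ± 0.38 and Wwtr1 by 1.12 ± 0.29. Wwtr1 was not called with DESeq2 (0.94), among members with 3 or 4 markers (0.72) or without LPD control (0.88). Wwc1 stood at 596, 560, 902 and 689 CPM in members against 78.8, 72.8, 153 and 276 CPM. Yap1 was not called, at 164, 219, 174 and 189 CPM against 152, 153, 134 and 214 CPM. Against all other nuclei 15 were tested, with 8 higher and none lower, including Ccn1 (3.47 ± 0.70), a target, and Tead1 (2.96 ± 0.27). Ccn1 was not called there without CD control (2.98).

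Complement genes included 3 of 8 higher than in stellate nuclei and 2 lower. C3, the central complement protein, stood at 1402, 828, 1284 and 1222 CPM against 768, 442, 195 and 338 CPM (1.59 ± 0.29), and C2 was higher by 2.31 ± 0.40 and C4b by 1.37 ± 0.35. All 4 member values of C3 were above all 4 stellate values. C4b was not called with DESeq2 (1.18) or without the LPD oncogene library (0.70). In the members of that library C4b stood at 706 CPM, against 243 to 268 CPM in the others. The chemokine Cxcl12 (-3.50 ± 0.51) and the protease Masp1 (-3.14 ± 0.41) were lower. Hepatocytes are the main source of these complement proteins in the liver. In the comparison with all other nuclei, C3 (1.06 ± 0.25) and C2 (1.62 ± 0.35) were still higher, and C4b was not called (0.61 ± 0.29). The call of C3 was lost there without LPD control (0.78) and with DESeq2 (0.77), and that of C2 with at least 3 markers (1.71). The dot plot of 4 lists sets these groups beside each other.

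**Figure D4:**
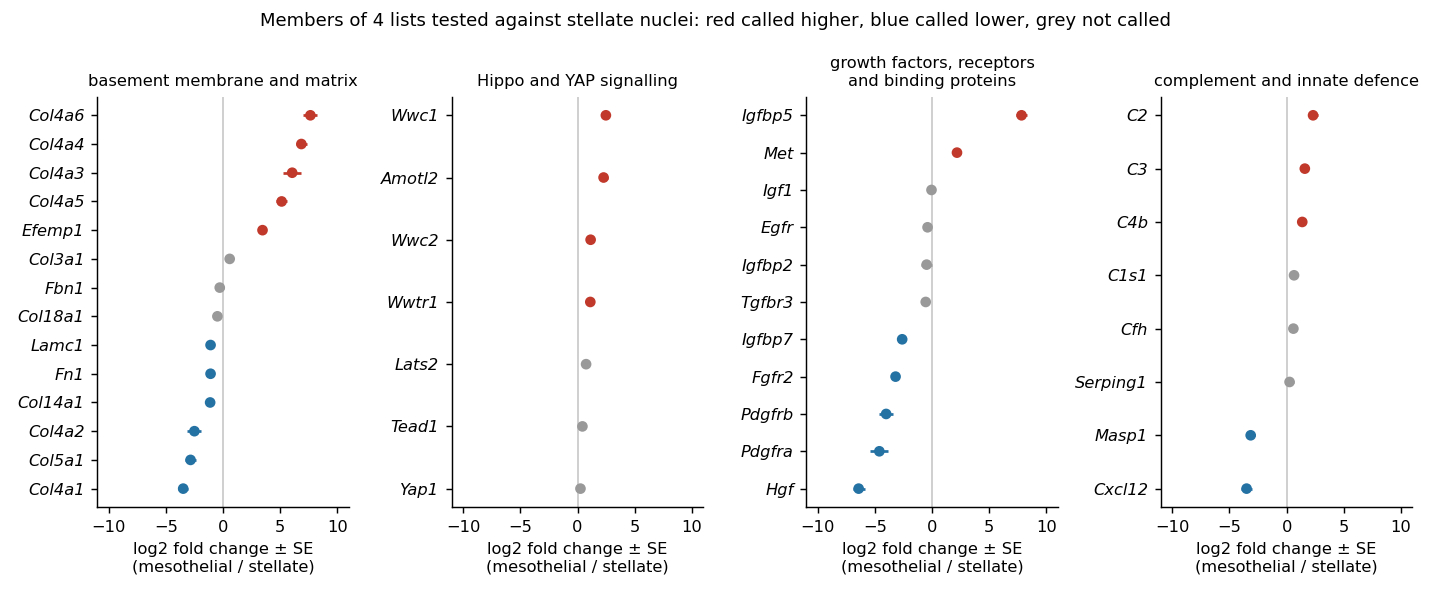
Log2 fold change of members over stellate nuclei (edgeR, n = 4 libraries) for the tested genes of 4 lists that had UMIs in members. Genes called higher are in red, those called lower in blue and those not called in grey. Bars are ± 1 SE, with the SE taken as the size of the change over the square root of F. Col4a6 and Col4a1 lie at the ends of the matrix panel, at 7.64 and -3.48, and Lama1 and Igfbp3, with no member UMI, are not drawn.

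Retinoid genes were sparse. Of 3 tested against stellate nuclei, the cells that store vitamin A, 2 were lower: the retinoic acid receptor Rarb, at 14.9, 0, 0 and 0 CPM in members against 347, 325, 371 and 276 CPM (-5.74 ± 0.65), and the retinal dehydrogenase Aldh1a1, at 119, 268, 208 and 344 CPM against 645, 594, 879 and 632 CPM (-1.49 ± 0.31). With all other nuclei 11 were tested, with 1 higher and 3 lower.

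Of the mesenchymal genes, 4 were tested against stellate nuclei, 1 higher and 3 lower. The transcription factor Zeb2 stood at 119, 97.4, 69.4 and 34.4 CPM in members against 3578, 3251, 3122 and 3073 CPM (-5.27 ± 0.34). Decorin (Dcn), a matrix proteoglycan, was lower by -2.09 ± 0.29 than in stellate nuclei but higher by 3.62 ± 0.42 than in all other nuclei, and vimentin (Vim), an intermediate filament protein, was higher than in all other nuclei by 5.43 ± 0.62. Zeb1 was called higher by 0.67 ± 0.26 (edgeR adjusted p = 0.0486). The call was lost with DESeq2 size factors and without CD control (0.55), LPD control (0.51) or LPD oncogene (0.57). It was also lost with DESeq2 (0.47), at least 3 markers (0.49), library totals alone (0.60) and no filter (0.59). Leaving out the member outside the cluster (0.59) or the tenth of members with the most hepatocyte marker UMIs (0.60) ended it too. Acta2, Tagln, Lum and Twist1 had no UMI in any member. Of the list for hyaluronan and surface glycoproteins, 2 genes were tested against stellate nuclei and both were higher, among them Muc16; the hyaluronan synthase Has1 had UMIs in 5 members and Has2 in none.

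Markers of other liver cells were counted in the members. Of 10 stellate markers, 3 had any UMI, 6 members held 1 of the 5 that define the stellate gate, none held more, and Lrat, Pth1r and Hand2 were at 0. The stellate list summed to 24.3 to 139 CPM in the members of the 4 libraries, against 5942 CPM in the stellate gate. Of the endothelial list 6 of 10 genes had a UMI and it reached 44.7 to 278 CPM, with Pecam1 and Cdh5 at 0. It stood at 292 CPM in the stellate gate and 184 CPM in all other nuclei. Kdr, with UMIs in 12 members, was called higher than in all other nuclei (log2 fold change 2.32) and Pecam1 lower. Neither call held without LPD control, without LPD oncogene or with at least 3 markers. The macrophage list (7 of 10) reached 34.7 to 122 CPM, with Cd163 and C1qa at 0, the lymphocyte list (2 of 10) 0 to 73.0 CPM, with Cd3e and Cd79a at 0, and the smooth muscle list (2 of 8) 68.9 to 174 CPM, with Myh11 and Cnn1 at 0.

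The cholangiocyte list stood apart, at 1909 to 2938 CPM in members against 427 CPM in the stellate gate. Bicc1, an RNA-binding protein, made up most of it, at 2744, 1826, 1770 and 2427 CPM in 114 members against 449, 369, 352 and 321 CPM in stellate nuclei (log2 fold change 2.61 ± 0.24). Against the cholangiocyte gate, Bicc1 was higher by 4.15 on the log2 scale, but against the stricter cholangiocyte gate it was not called (0.48). Cftr, a chloride channel, was found in 14 members and Tspan8 in 5. Of other bile duct genes, Epcam and Spp1 had no UMI and Sox9 had UMIs in 1 member, while Krt7 was found in 24 members and Krt19 in 10. Pkhd1 was at 0 because the gate excluded it.

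Hepatocyte marker RNA was present in the members at 10170, 10738, 4268 and 6283 CPM, against 15807 CPM in all other nuclei and 9697 CPM in the stellate gate. None of the 9 hepatocyte markers tested was called against stellate nuclei by edgeR or DESeq2 (0 at an unadjusted p under 0.05), and 7 of 10 were lower than in all other nuclei. In alternatives against stellate nuclei, 2 were lower with at least 3 markers, 2 without CD oncogene and 1 with DESeq2 size factors in edgeR. The hepatocyte level was higher in the members of both CD libraries than in those of both LPD libraries, and its part in the differences between diets described next was not tested.

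Between diets, the values are descriptions of 4 libraries. A gene was called when it changed at least 2-fold in the same direction in each of the 4 possible pairs of LPD against CD libraries, with 50 CPM added to each value. Of 900 genes with enough UMIs, 16 were higher on LPD (1.78%) and 26 lower (2.89%). The medians of all genes in the 4 pairs were 0.087 to 0.313 on the log2 scale, and with TMM factors, which brought them to between -0.066 and 0.019, the counts were 8 and 33.

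The 5 genes with the largest rise on LPD were Gm12840, Klf13, Slco2a1, Abcb1b and Parva. Gm12840 (chr4:117700188-117700923, plus strand), a long noncoding RNA, stood at 74.6, 48.7, 659 and 603 CPM in members. It was also high on LPD in the other nuclei of the cluster, at 67.5, 26.1, 320 and 390 CPM, while all nuclei outside the gate had 2.03, 1.99, 5.08 and 16.8 CPM. Both LPD libraries were thus above both CD libraries in the mesothelial cluster and, at a low level, in all nuclei outside the gate. Abcb1b, a P-glycoprotein that pumps drugs out of cells, stood at 239, 24.3, 798 and 1188 CPM in members and at 67.5, 34.8, 320 and 1147 CPM in the rest of the cluster, and at 2.67 to 8.57 CPM in all nuclei outside the gate. Its smallest log2 change was 1.56 in members and 1.65 in the rest of the cluster. Among the 45 members with 3 or 4 markers the smallest change of Abcb1b was 0, and the gene was not called.

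The other 3 genes were detected more widely. Klf13, Slco2a1 and Parva had UMIs in 26.7%, 23.3% and 37.2% of nuclei outside gate and cluster, against 1.42% for Gm12840 and 0.879% for Abcb1b. The transcription factor Klf13 stood at 74.6, 48.7, 451 and 430 CPM in members (smallest log2 change 1.95), and rose on LPD in all nuclei outside the gate too, with 52.6, 41.8, 211 and 245 CPM (1.35). Slco2a1, a prostaglandin transporter, stood at 104, 24.3, 555 and 499 CPM (1.83), and Parva, an integrin-linked actin-binding protein, at 268, 292, 972 and 844 CPM (1.38). In all nuclei outside the gate, Slco2a1 and Parva had smallest changes of 0.24 and 0.037. In the rest of the cluster they had 0.76 and 0.54, under the 2-fold line, and over all cluster nuclei Parva was not called.

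The 5 genes with the largest fall on LPD fell in the other nuclei too. AY036118 and Gm42418, which overlap on chromosome 17 and lie over a ribosomal RNA repeat, stood at 5696, 9716, 0 and 17.2 CPM and at 67165, 122748, 3158 and 4751 CPM in members. Over all nuclei outside the gate Gm42418 was at 32510, 49826, 8122 and 6978 CPM. Cmss1 (3087, 5527, 208 and 344 CPM) and the kinase gene Camk1d (4861, 6550, 486 and 723 CPM) showed the same order of diets. Serpina1e, a hepatocyte antitrypsin whose reads can be shared with its near-identical copies, stood at 1044, 925, 69.4 and 34.4 CPM, against 1102, 1119, 395 and 125 CPM in all nuclei outside the gate. Among members with 3 or 4 markers its smallest change was -0.95, under the 2-fold line. The plots of the 10 genes by library set members, the rest of the cluster and all other nuclei side by side.

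**Figure D5:**
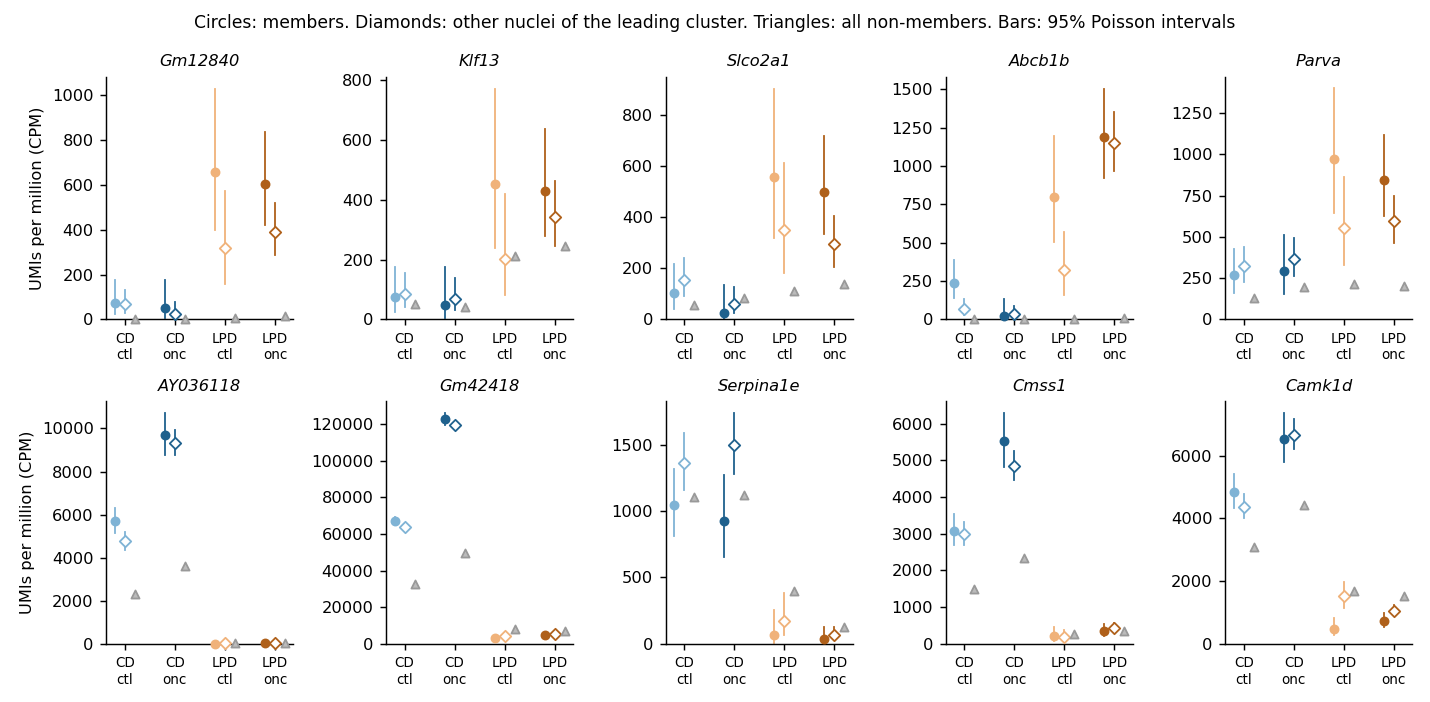
CPM of the 5 genes with the largest rise (top) and the 5 with the largest fall (bottom) on LPD, in the members (circles), the other nuclei of the cluster (diamonds) and all nuclei outside the gate (triangles) of each library. Bars are 95% Poisson intervals for each set. Gm12840 and Abcb1b are high in circles and diamonds on LPD and near 0 in the triangles.

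The glucocorticoid response list was lowest in the CD control and highest in the LPD oncogene library, at 1014, 1851, 2186 and 5199 CPM in members. Zbtb16, a transcription factor induced by glucocorticoids, stood at 89.5, 268, 416 and 1894 CPM in members, at 73.0, 189, 631 and 2244 CPM in stellate nuclei, and in the same order in all nuclei outside the gate. Fkbp5, a glucocorticoid-induced co-chaperone, stood at 59.6, 24.3, 139 and 654 CPM in members. Both genes were highest in LPD oncogene, in members and stellate nuclei alike. None of the 6 tested genes of the list was called against stellate nuclei by edgeR or DESeq2, and 1 had an unadjusted edgeR p under 0.05. In alternatives, 1 was higher with at least 500 genes and at most 5% mitochondrial UMIs, and 1 was lower with at least 3 markers.

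The immediate early transcription factors Egr1 and Fos were detected in the members of the CD libraries only. Egr1 stood at 432, 170, 0 and 0 CPM and Fos at 194, 122, 0 and 0 CPM in members, and the list summed to 1417, 730, 902 and 258 CPM. In stellate nuclei Fos was at 2.92, 4.85, 0 and 0 CPM, and Egr1 at 67.1, 4.85, 0 and 0 CPM. In the comparison with all other nuclei, 7 of 12 tested genes of this list were higher in members and none lower, and Jund, the gene tested against stellate nuclei, was higher there (2.67 ± 0.52). Of the 7 calls 4 were lost in alternatives: Egr1 with DESeq2 (1.30) and without CD control (2.04) or CD oncogene (1.15), Atf3 without CD control (3.87) or LPD control (3.69), Fosl2 without LPD control (2.08) and Jun without CD control (2.75). All 4 were also not called with at least 3 markers per member. Immediate early genes can be induced during handling of tissue, and the part of handling in these values was not tested.

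Of the amino acid deprivation genes, 12 were tested against all other nuclei and none was called by edgeR or DESeq2, with 2 at an unadjusted edgeR p under 0.05; Asns, Phgdh and Slc7a11 had no UMI in members, and the list summed to 146 to 382 CPM in the 4 libraries. Of the clock genes, 2 of 3 tested were higher than in stellate nuclei, Hlf (1.36 ± 0.49) and Nr1d2 (1.05 ± 0.38), and neither was called with DESeq2 size factors, without CD oncogene (0.92 and 0.89) or without LPD oncogene (1.04 and 0.91). Nr1d2 was also not called without CD control (0.86). Against all other nuclei 14 clock genes were tested, with Dbp (1.75 ± 0.60) and Tef (1.12 ± 0.32) higher and Arntl (-2.31 ± 0.73) lower. Dbp was found in 11 members and Arntl in 3. None of these 3 calls held in every alternative: Dbp and Tef were not called with DESeq2 size factors (1.45 and 0.84) or without LPD control (2.06 and 0.97), and Arntl not without CD control (-1.74) or CD oncogene (-2.90). The clock list summed to 969, 511, 1631 and 1515 CPM in members, with both LPD libraries above both CD libraries. Of the proliferation genes none could be tested against stellate nuclei, none of 7 was called against all other nuclei by edgeR or DESeq2 (0 at an unadjusted edgeR p under 0.05), and Mki67 and Top2a had no UMI in members. Kif11 had UMIs in 2 members and Tpx2, Prc1 and Hmmr in 1 each. The list summed to 14.9, 0, 208 and 0 CPM in members, with 6 UMIs in LPD control. Over all members it was 35.9 CPM, against 15.9 CPM in the stellate gate and 20.8 CPM in all other nuclei.

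The 250 bases before the RefSeq starts (GRCm38.p6) of the 252 genes called higher in all 3 comparisons were searched on both strands for 4 motifs. The table held 277 promoters of 198 of these genes, and 32851 promoters in all. The TEAD motif GGAATG was in 16.2% of the promoters of the called genes and in 12.6% of all. The WT1 and EGR motif GCGTGGGNG was in 2.53% and 1.65%, the GATA motif AGATAA in 6.50% and 9.99%, and the AP-1 motif TGANTCA in 3.97% and 6.75%. Of the 20 leading genes 16 had a promoter in the table, and Igfbp5 was the 1 gene with a match. A match is a description of letters, and factor binding was not measured.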

How the data were processed

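The authors deposited UMI counts per gene and nucleus for 4 libraries made from frozen liver with the 10x nuclei isolation and 3′ kits. Per the file headers the counts came from Cell Ranger 9.0.1. The build was mm10 with human c-MET and CTNNB1 added, and the submitters' processing notes also name Seurat 5. Whether intron reads were counted is not given in the sources used here. Of 44010 barcodes, 42877 had 200 to 7000 genes and at most 21% mitochondrial UMIs, the study's filter. No doublet caller was run. The excluded genes removed some mixed nuclei.

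The members and gene lists were chosen with earlier results of these data known. The stellate gate needed at least 2 of Reln, Lrat, Colec11, Pth1r and Hand2. It allowed no UMI of Wt1, Upk3b, Msln or the genes that the mesothelial gate excluded. The cholangiocyte gate needed at least 2 of Pkhd1, Epcam, Krt19, Sox9, Cftr and Krt7, with Pkhd1 or Epcam. It allowed no UMI of Stab2, Ptprb, Clec4f, Adgre1, Skap1, Bank1, Wt1, Upk3b or Msln. Genes of the gates compared were left out of calls. UMIs were summed per library and gate and tested with edgeR 4.0.16 (quasi-likelihood test, library as block, filterByExpr, Benjamini-Hochberg adjustment over all genes tested). Tests on simulated data led to 1 change from the planned design: TMM factors were taken from genes with at least 5 expected UMIs in the smallest sum. Clustering used 2000 variable genes without the 12 gate genes, values scaled within libraries, 30 components and 20 neighbours (Louvain, igraph 0.11.9). Diet values used genes with at least 40 member UMIs and 100 CPM in 1 library, and a pseudocount of 50 CPM. Coordinates are from GENCODE on GRCm38.

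Named genes were the gate genes, the 20 genes with the largest smallest fold change over the 3 comparisons (with at least 5 member UMIs in every library), the 5 lowest in both the stellate and the cholangiocyte comparison, the 5 highest and 5 lowest between diets, and in each list those with the largest and smallest change. Other genes of the lists are given because they belong to a pair, were not called or are at 0, and were picked after their values were seen. Alternatives varied the gate, nucleus filter, scaling, tool, gene filter, pseudocount and depth, and left out each library.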

Additional observations from a re-analysis of the deposited data

Results flagged for a closer look

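The ratio of the oncogene to the control library went in opposite directions on CD and LPD for the share of members and for 3 of the 80 named genes checked. For these 3 genes the counting interval of the log2 ratio excluded 0 on each diet. The share of nuclei in the gate had a ratio of 0.476 on CD and 1.82 on LPD. For the whole cluster it was 0.847 on CD, where the intervals overlap, and 2.67 on LPD. In members, the log2 ratio of Egfr, the epidermal growth factor receptor, was -0.64 on CD and 2.32 on LPD, that of Kcnd2 was -1.27 and 1.04, and that of Alb (albumin), a hepatocyte gene, was -0.46 and 0.51. With 1 library per group the difference between diets was not tested, and both CD labels are in doubt from their transgene UMIs and from the order of their nuclei numbers. With the CD labels exchanged, an alternative chosen after the data were seen, the CD values are 2.0996 for the gate, 1.18 for the cluster, 0.64 for Egfr, 1.27 for Kcnd2 and 0.46 for Alb. Exchanging the labels turns every CD ratio around, so each of the 5 then goes in the same direction on both diets by construction. This is no test of the labels, and the directions seen depend on which CD labels are used.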

How the results depend on the processing

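Of the main values, 92 stayed within 1.5 times their count or within their interval and 32 moved. None of the 20 leading, 5 lower and 10 diet genes reversed its direction. Against stellate nuclei, testing every gene with a UMI gave 590 higher and 481 lower, and leaving out 1 library gave 251 to 384 higher and 271 to 391 lower. Against the cholangiocyte gate, the stricter gate gave 144 and 96, DESeq2 868 higher, no filter 1097 higher, and at least 3 markers 368 lower. Leaving out 1 library gave 447 to 598 higher and 370 to 660 lower there, with the 370 without CD control. Against all other nuclei, at least 3 markers (3 libraries) gave 623 and 319, and leaving out 1 library gave 874 to 1017 higher and 448 to 829 lower, with 448 without CD control and 494 without LPD oncogene.

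With DESeq2 size factors more genes were lower than higher against stellate nuclei (272 higher, 371 lower) and all other nuclei (999 and 1182), the reverse of the main counts, and DESeq2 reversed the balance for the cholangiocyte gate (868 and 555). The log2 fold change of Wwc1 turned from 1.00 to -0.051 with the stricter cholangiocyte gate. DESeq2 size factors moved the median of all genes from 0.035 to -0.15 (stellate) and from -0.11 to -0.39 (all other nuclei). The share of calls that were higher then moved from 48.2% to 35.8% (cholangiocyte gate) and from 59.5% to 45.8% (all other nuclei); for the cholangiocyte gate it was 37.7% with library totals alone, 60.0% with the stricter gate, 61.0% with DESeq2 and 63.2% with no filter.

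At least 3 markers gave shares of 0.164%, 0.0478%, 0.102% and 0.119%, the whole cluster 0.875%, 0.741%, 0.438% and 1.17%, no excluded genes 0.567% in CD control, and thinning to 1000 UMIs 0.148% in LPD control and 0.255% in LPD oncogene. Between diets, the higher and lower counts were 8 and 17 with a pseudocount of 200 CPM, 75 and 64 with no floor, 4 and 11 with at least 3 markers and 29 and 41 over the whole cluster; TMM factors gave 8 higher. The cause of these moves was not tested, apart from the number of genes or nuclei that each setting leaves. No paired analysis was possible because, between groups, each has 1 library and no replicate numbers are shared; the fits between sets of nuclei had the library as a block. The 129 members and their depth of about 1170 UMIs limit all values.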
